A study of Mus musculus with 16 samples.

Results

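Promoter methylation of 10 mouse germline genes was measured at 236 CpGs, of 1203687 CpGs in the series. The genes were Dazl, Ddx4, Mael, Sycp1, Sycp3, Hormad1, Mov10l1, Slc25a31, Brdt and Stk31. They were taken by name as germline genes, with earlier results of these data known. Their CpGs are those within 1000 bp of an annotated transcript start (GENCODE M21, mouse build GRCm38/mm10). Each of these CpGs had at least 10 reads in all 16 libraries. The methylation level of a CpG is the percentage of its reads that were methylated, and the level of a promoter is the mean over its CpGs. All 10 genes had at least 5 such CpGs, with 5 at Ddx4, 12 at Stk31, 14 at Dazl, 18 at Sycp3, 20 at Mov10l1, 22 at Mael, 27 at Brdt, 33 at Hormad1, 41 at Sycp1 and 44 at Slc25a31.

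The libraries came from mouse embryonic fibroblasts (MEFs) of the C57BL/6J strain, derived from 2 sibling E13.5 embryos and immortalised by serial passaging through crisis, with no engineered allele and no treatment in any group. MEF-1 is from a male and MEF-2 from a female embryo, so that embryo, sex and culture history differ together between the 2 families and cannot be told apart. Each family has 1 parental library, with no replicate, and 7 libraries of clonal lines, each grown from a single sorted cell. The question of the design is how faithfully methylation is passed on as 1 cell grows into a population. Differences between families were tested over the clonal lines, and such p-values measure the spread between lines that share an embryo and a culture.

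A subset of germline genes has CpG-dense promoters that are methylated and repressed in somatic cells, whereas most CpG-dense promoters stay unmethylated. The methylation is laid down in the early embryo by the de novo methyltransferases and is copied at each division by the maintenance methyltransferase. Many of these promoters are also bound by a repressive complex that recognises E-box and E2F sites. RNA was not analysed here, so the values below describe methylation and not transcription.

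The libraries held 59243669 to 90633091 methylation calls, with a median of 26 to 39 reads per CpG. The CpGs of the germline genes had a median of 24 reads, against 32 over all CpGs. MEF-1 lines 1, 4 and 5 stood apart: their deviations from the family mean correlated with each other (r of 0.129 to 0.158 across CpGs, against -0.369 to 0.12 for the other pairs of MEF-1 lines). They also had fewer CpGs called lower than their parent (0.59% to 0.684%, against 2.16% to 3.83% in the other 11 lines). Promoter calls that change without them are therefore given both ways below. Calls at named single CpGs, and the capitals in the sequences below, are given with all lines only. Without those lines 28 of the 236 CpGs were called different between families, against 47 with them. The shares over all CpGs were 14.1% and 20.2%. Of the 6 fibroblast markers with a measured promoter, Col1a2 and Fn1 were under 10% in all 16 libraries, and Thy1 was methylated, with clonal means of 93.5% and 94.8% in the families.

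The promoters below are shown because they are those of the 10 that hold, in the window printed, CpGs at which the families differed. Each sequence runs 5′ to 3′ on the coding strand from 250 bases before the start to 30 bases from it onwards, in build GRCm38/mm10, and capitals mark the CpGs called different between MEF-1 and MEF-2. Sycp3 is chr10:88459319-88459598, Hormad1 chr3:95559427-95559706, Mov10l1 chr15:88982659-88982938, Slc25a31 chr3:40708605-40708884 and Stk31 chr6:49395354-49395633, all on the plus strand, and Mael is chr1:166238715-166238994 on the minus strand.
Sycp3: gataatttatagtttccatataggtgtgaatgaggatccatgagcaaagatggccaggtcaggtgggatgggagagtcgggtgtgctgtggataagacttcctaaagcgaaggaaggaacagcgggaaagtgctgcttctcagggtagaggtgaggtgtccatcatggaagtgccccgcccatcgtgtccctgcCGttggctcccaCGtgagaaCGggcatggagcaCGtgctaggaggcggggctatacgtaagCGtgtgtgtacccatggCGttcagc
Hormad1: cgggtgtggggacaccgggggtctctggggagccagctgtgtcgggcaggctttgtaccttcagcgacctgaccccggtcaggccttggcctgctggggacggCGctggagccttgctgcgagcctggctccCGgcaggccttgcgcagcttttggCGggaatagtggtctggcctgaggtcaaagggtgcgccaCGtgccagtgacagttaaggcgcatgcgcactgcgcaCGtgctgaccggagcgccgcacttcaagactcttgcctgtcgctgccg
Mov10l1: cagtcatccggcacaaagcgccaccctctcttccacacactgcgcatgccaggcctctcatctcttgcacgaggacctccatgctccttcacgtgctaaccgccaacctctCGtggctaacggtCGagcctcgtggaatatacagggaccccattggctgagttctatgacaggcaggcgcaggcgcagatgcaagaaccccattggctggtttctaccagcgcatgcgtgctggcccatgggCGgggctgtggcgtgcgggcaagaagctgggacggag
Slc25a31: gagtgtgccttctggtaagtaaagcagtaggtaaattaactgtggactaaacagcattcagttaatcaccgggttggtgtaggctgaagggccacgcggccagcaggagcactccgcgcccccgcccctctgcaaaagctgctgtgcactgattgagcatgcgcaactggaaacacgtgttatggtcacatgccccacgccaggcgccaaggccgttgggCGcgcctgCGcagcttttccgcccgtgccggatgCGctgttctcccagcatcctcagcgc
Stk31: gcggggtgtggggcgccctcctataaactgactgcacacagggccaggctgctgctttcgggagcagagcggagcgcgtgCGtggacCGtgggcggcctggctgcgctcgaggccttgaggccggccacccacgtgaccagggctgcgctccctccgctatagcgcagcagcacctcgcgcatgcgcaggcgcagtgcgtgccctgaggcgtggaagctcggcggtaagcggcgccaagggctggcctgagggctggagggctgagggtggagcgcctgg
Mael: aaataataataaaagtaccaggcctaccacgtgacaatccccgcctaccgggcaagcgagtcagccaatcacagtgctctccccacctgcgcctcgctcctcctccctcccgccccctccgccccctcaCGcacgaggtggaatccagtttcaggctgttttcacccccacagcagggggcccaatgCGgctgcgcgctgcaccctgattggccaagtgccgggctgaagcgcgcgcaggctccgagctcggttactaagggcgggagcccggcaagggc

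CpG content was read from the genome and not from methylation. Dazl, Ddx4, Mael, Sycp1, Hormad1 and Stk31 belonged to the high-CpG class, which needs at least 1 window of 500 bp around the start with both a CpG frequency, observed over expected, above 0.75 and a GC content over 55%. Stk31 met both limits in another window than that of its highest ratio, where GC was 54.4%. Sycp3, Mov10l1, Slc25a31 and Brdt were intermediate, so not all 10 promoters are CpG-dense by this definition. Their measured CpGs had a median of 12.5 other CpGs within 100 bp, against 5 over all CpGs. Of the 236 CpGs, 117 lay upstream of a transcript, 52 in an intron, 36 in an untranslated exon, 30 in a coding exon and 1 in a non-coding exon. No other gene started within 1000 bp of any of them, and all 18 Sycp3 CpGs also lay inside Chpt1, a gene of phospholipid synthesis.

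Because the 10 genes were chosen with earlier results known, the shares over all promoters below are for scale and test nothing. The 10 promoters were methylated in every library. Their median level was 83.6% to 90.8% in the 16 libraries, whereas the median over all 13186 gene promoters with at least 5 CpGs was 12.95% to 14.2%. A level of at least 60% in all 16 libraries was found at 9 of the 10, and over all promoters at 726 (5.51%). In the high-CpG class it was found at 6 of the 6 germline genes and at 129 of 6736 promoters (1.92%). One of these 6 is Ddx4, whose 5 measured CpGs lie 611 to 825 bp inside the gene. They had a median of 3 other CpGs within 100 bp, so they do not describe a CpG-dense start. The exception among the 10 was Brdt, which was under 60% in some MEF-2 lines and in the MEF-2 parental library.

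**Figure D1:**
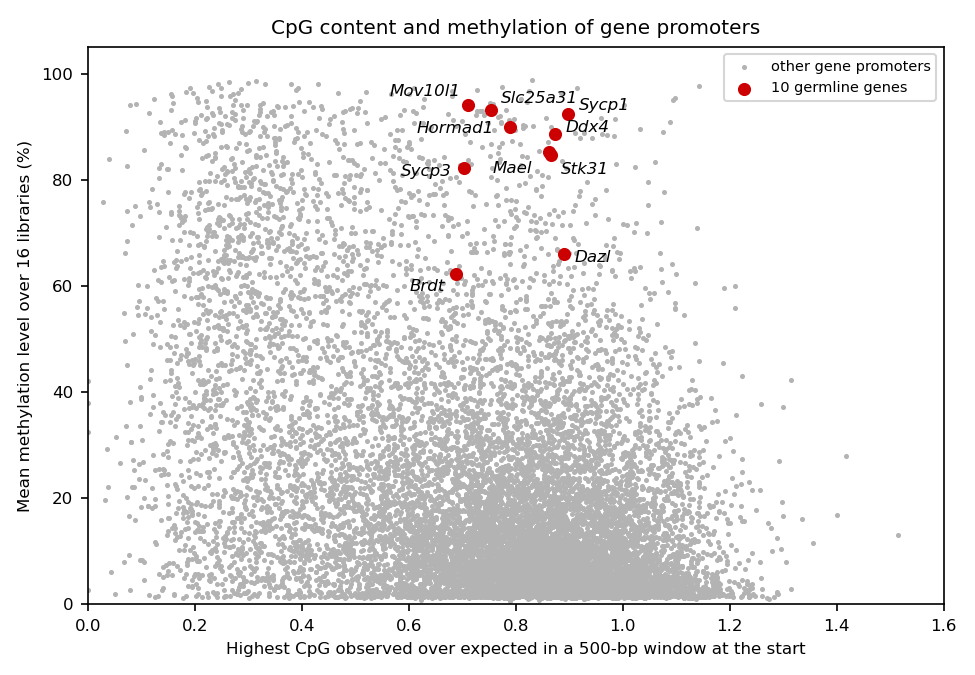
Mean promoter methylation over the 16 libraries (y axis, %) against the highest CpG observed-over-expected ratio in a 500-bp window at the start (x axis), with grey points for other gene promoters and red points for the 10 germline genes. Of the 10 genes, 8 average 80% or more, as do 410 of all 13186 promoters (3.11%). The Ddx4 level is of 5 CpGs that lie 611 to 825 bp inside the gene.

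Sycp1, Sycp3 and Hormad1 encode parts of the meiotic chromosome. Sycp1 forms the transverse filaments of the synaptonemal complex, and its start lies at chr3:102936100 on the minus strand. Promoter methylation was 89.5% in the MEF-1 parental library and at 87.5%, 90.5% and 92.2% (lowest, median and highest) in the MEF-1 lines. In MEF-2 it was at 95.3% in the parental library and at 92.5%, 95.8% and 96.5% in the lines. By the mean over CpGs, all MEF-2 lines lay above all MEF-1 lines, though by little. By pooled reads, on which the test runs, the lines overlapped, at 86.6% to 92.4% in MEF-1 and 91.7% to 96.7% in MEF-2. The means over CpGs were 94.8% ± 1.64 in MEF-2 and 90.1% ± 1.67 in MEF-1 (SD, n = 7 lines each, as for all promoter means below). The difference (MEF-1 minus MEF-2) of -4.69 points passed the quasi-binomial test, a logistic model of methylated and unmethylated reads over the lines with p adjusted over all 13186 promoters (adjusted p = 0.00776), but not without MEF-1 lines 1, 4 and 5 (-3.97 points, adjusted p = 0.0534). It also rested on which CpGs were deep enough: with a minimum of 5 reads MEF-1 was the higher family, by 1.8 points (quasi-binomial adjusted p = 0.17). The 38 to 40 Sycp1 CpGs near the start that had under 10 reads in some library averaged 92.3% ± 1.46 in MEF-1 and 85.6% ± 3.84 in MEF-2 lines, the opposite order.

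Sycp3 encodes a component of the lateral elements of the same complex and starts at chr10:88459569. The promoter stood at 77.2% in the MEF-1 parental library and at 68.6%, 73.2% and 80.7% in the MEF-1 lines, the lowest values of the 3 meiotic chromosome genes. It was at 91.6% in the MEF-2 parental library and at 87.4%, 90.8% and 92.7% in the lines. The ranges did not overlap, and the parental libraries lay within their own family's range. The means were 73.6% ± 4.16 and 90.3% ± 2.02 (MEF-1 minus MEF-2 of -16.6 points, quasi-binomial adjusted p = 3.22e-05). This was the widest gap of the 10 genes at the minimum of 10 reads, though not at every read minimum. Chromosome 10 coverage, relative to the other chromosomes and to the MEF-2 lines, was 1.145 in MEF-2 line 4 and within 0.1 of 1 in the other libraries.

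The Sycp3 difference came from some CpGs and not from others a few bases away. Of the 12 measured CpGs within 100 bp of the start, 8 were called: those at positions -56, -44, -36, -23, 5, 22, 50 and 56 from the start, of which the 6 in the printed window are in capitals above. In MEF-1 lines these 8 averaged 48.3% to 75.7%, and in MEF-2 lines 75.2% to 100%. The other 4, at -74, -67, -11 and -1, averaged 96.4% to 99.2% in MEF-1 and 91.4% to 99.4% in MEF-2, so methylated and partly methylated CpGs were interleaved in MEF-1. The MEF-1 parental library showed the same partial levels, for example 60.9% at position 5, where the MEF-1 lines ran 41.7%, 47.4% and 70.0%. The MEF-2 parental library was at 96.3% there, and the MEF-2 lines at 94.1%, 100% and 100%. The 2 ranges were far apart, with a difference of -45.8 points (quasi-binomial adjusted p = 1.72e-05). At -36 the MEF-1 parental library was at 55% and the lines at 38.1% to 66.7%, against 92.3% to 100% in MEF-2 lines (quasi-binomial adjusted p = 2.19e-05). At both CpGs a partial level was present in every MEF-1 line after growth from 1 cell.

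Hormad1 encodes a HORMA-domain protein of the unsynapsed meiotic chromosome axis and starts at chr3:95559677. Its promoter was at 89.7% in the MEF-1 parental library and at 85.8%, 88.9% and 91.3% in the lines. It was at 89.8% in the MEF-2 parental library and at 86.8%, 91.0% and 95.2% in the lines. The ranges overlapped, and the difference of -1.79 points did not pass the test (quasi-binomial adjusted p = 0.711). Single CpGs differed all the same, in both directions. At -55 the MEF-1 parental library was at 25.4% and the lines at 12.5%, 19.4% and 27.7%, whereas the MEF-2 parental library was at 91.7% and the lines at 48.8%, 95.0% and 100% (quasi-binomial adjusted p = 0.000593). At -118, in the same promoter, MEF-1 lines were at 96.6% to 100% and MEF-2 lines at 54.5% to 88.4% (quasi-binomial adjusted p = 7.79e-05). The low MEF-1 CpG at -55 sits in a promoter where the other CpGs within 100 bp averaged 97.7% in MEF-1.

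Mael, Mov10l1 and Ddx4 act in the piRNA pathway, which silences transposons in the male germline. Mael starts at chr1:166238744 on the minus strand. The Mael promoter was at 89.2% in the MEF-1 parental library and at 81.0%, 87.3% and 91.5% in the lines, and at 84.1% in the MEF-2 parental library and 78.5%, 82.6% and 89.3% in the lines. The ranges overlapped, and the difference of 2.12 points did not pass the test (quasi-binomial adjusted p = 0.16), with 0.679 points without MEF-1 lines 1, 4 and 5. The CpGs in capitals at -120 and -62 differed in opposite directions, by -37.0 and 26.3 points (MEF-1 minus MEF-2, quasi-binomial adjusted p = 0.00863 and 0.0121). The least methylated Mael CpG, at -116, was at 4.55% to 47.4% in MEF-1 and 4.55% to 76.9% in MEF-2 lines, so that it spread widely within each family. Chromosome 1 coverage was shifted by over 0.1 in MEF-1 lines 5 and 7, the lowest relative value being 0.827.

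Mov10l1 encodes an RNA helicase needed to make piRNAs, and its start is at chr15:88982909. In MEF-1 its promoter was at 98.8% in the parental library and at 96.4%, 98.2% and 99.3% in the lines, the highest of the 10 genes. In MEF-2 it was at 90.9% in the parental library and at 85.8%, 91.1% and 94.1% in the lines. The ranges did not overlap, with means of 98.1% ± 0.934 and 89.9% ± 3.04 (8.2 points, quasi-binomial adjusted p = 1.8e-05). With a minimum of 5 reads the difference was 13.03 points. Most of the drop sat at few CpGs, which are in capitals in the sequence. At -126 the MEF-1 parental library was at 94.4% and the lines at 96.4%, 100% and 100%, but the MEF-2 parental library was at 41.7% and the lines at 4.35%, 14.3% and 71.4% (72.6 points, quasi-binomial adjusted p = 0.000295). The CpGs at -139 and -7 differed by 23.5 and 23.1 points. Relative coverage of chromosome 15 reached 1.28 in MEF-1 line 5.

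Ddx4 encodes the Vasa RNA helicase, a marker of germ cells, and starts at chr13:112652475 on the minus strand. Its 5 CpGs in the table lie 611 to 825 bp inside the gene, so they do not describe the start itself. They were at 95.6% in the MEF-1 parental library and at 87.0%, 89.0% and 98.2% in the lines, and at 87.0% in the MEF-2 parental library and 78.9%, 85.4% and 89.5% in the lines. The ranges overlapped, and the difference of 6.51 points did not pass the test (quasi-binomial adjusted p = 0.0627), with 4.24 points without MEF-1 lines 1, 4 and 5. The CpGs nearer the start had under 10 reads in at least 1 library, and their values are given with the additional observations. Chromosome 13 relative coverage was 1.16 in MEF-1 line 1.

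Stk31 encodes a Tudor-domain kinase-like protein of the testis and starts at chr6:49395604. The level was 90.8% in the MEF-1 parental library and at 87.5%, 89.4% and 94.7% in the lines. It was at 82.5% in the MEF-2 parental library and at 69.4%, 77.8% and 85.1% in the lines. The ranges did not overlap, and the means were 90.1% ± 2.75 and 78.6% ± 5.23 (11.5 points, quasi-binomial adjusted p = 0.00178). With a minimum of 5 reads the difference was smaller, at 3.04 points. The 12 measured CpGs lie at positions -305 to -157, upstream of the start. The CpGs within 300 bp that had under 10 reads in some library averaged 87.2% ± 2.91 in MEF-1 and 88.7% ± 2.09 in MEF-2 lines, the opposite order, with overlapping ranges. At -305 the MEF-1 parental library was at 71.4% and the lines at 37.5%, 68.2% and 83.3%, against 25.7% and 4.35%, 7.69% and 52.9% in MEF-2. That CpG was the lowest of the gene and differed by 47.0 points (quasi-binomial adjusted p = 0.00991), and those at -170 and -163 by 31.02 and 29.8 points.

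Dazl encodes an RNA-binding protein needed for germ cell development and starts at chr17:50293636 on the minus strand. Its promoter was at 61.7% in the MEF-1 parental library and at 61.1%, 61.7% and 66.95% in the lines, and at 62.0% in the MEF-2 parental library and 66.4%, 69.8% and 75.1% in the lines. The ranges overlapped narrowly, and the difference of -8.17 points did not pass the test (quasi-binomial adjusted p = 0.0705). The mean joins unlike CpGs. The 8 CpGs within 100 bp of the principal start were nearly fully methylated in both families, at 98.3% ± 1.09 in MEF-1 and 98.5% ± 1.42 in MEF-2 lines. The 5 CpGs reached only from other annotated starts were at 16.2% ± 4.97 and 37.7% ± 7.77. With a minimum of 5 reads the gene's difference was -1.34 points (quasi-binomial adjusted p = 0.745). With the principal start alone the difference was -0.713 points (quasi-binomial adjusted p = 0.803). At position 1184, MEF-1 lines were at 0% to 14.3% and MEF-2 lines at 33.3% to 100% (-71.2 points, quasi-binomial adjusted p = 0.00176). Chromosome 17 relative coverage was 0.84 in MEF-1 line 1. That line had the highest Dazl mean over CpGs of its family but the lowest level by pooled reads (50%).

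Brdt encodes the testis-specific BET bromodomain protein that reads acetylated histones in spermatids, and starts at chr5:107331159. The Brdt promoter was at 65.8% in the MEF-1 parental library and at 61.9%, 65.8% and 67.8% in the lines. It was at 59.8% in the MEF-2 parental library and at 55.3%, 59.4% and 60.8% in the lines. These ranges did not overlap (6.95 points, quasi-binomial adjusted p = 0.0158), although the call was lost in a window of 500 bp (5.37 points, quasi-binomial adjusted p = 0.0759). By pooled reads, on which the test runs, they overlapped, at 53.4% to 64.4% in MEF-1 lines and 42.8% to 59.7% in MEF-2 lines. With a minimum of 20 reads the difference was 19.8 points. Around the principal start, 15 CpGs were at 86.2% ± 2.83 in MEF-1 and 81.9% ± 2.51 in MEF-2, a difference of 4.31 points (quasi-binomial adjusted p = 0.0317). The other 12 CpGs, at internal starts 28084 to 29425 bp downstream, were at 39.7% ± 2.66 and 29.4% ± 3.23 and lowered the gene's mean. At 28158 bp MEF-1 lines were at 92.9% to 100% and MEF-2 lines at 0% to 54.2%, the largest difference of the 236 CpGs (81.2 points, quasi-binomial adjusted p = 0.000107). Chromosome 5 relative coverage was 1.34 in MEF-1 line 7.

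Slc25a31 encodes the germ cell form of the mitochondrial ADP/ATP carrier and starts at chr3:40708855. Its promoter was at 95.1% in the MEF-1 parental library and at 94.0%, 95.1% and 96.3% in the lines. It was at 87.4% in the MEF-2 parental library and at 89.1%, 91.8% and 95.2% in the lines, so that all MEF-2 lines lay above their parent and partly overlapped MEF-1. The means were 95.1% ± 0.84 and 91.9% ± 2.24 (3.19 points, quasi-binomial adjusted p = 0.0119), and the call was lost without MEF-1 lines 1, 4 and 5 (3.16 points, adjusted p = 0.0516). The 7 to 10 CpGs near the start with under 10 reads in some library showed the opposite order, at 88.5% ± 2.42 in MEF-1 and 95.4% ± 1.51 in MEF-2 lines, with ranges that did not overlap. At position 4 MEF-1 lines were at 87.0% to 100% and MEF-2 lines spanned 0% to 100%, with a MEF-2 parental level of 44.0% (quasi-binomial adjusted p = 0.00722). That single CpG therefore reached both extremes among the MEF-2 lines. It was at 100% in line 1, on 15 reads, and at 0% to 70% in the other lines.

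**Figure D2:**
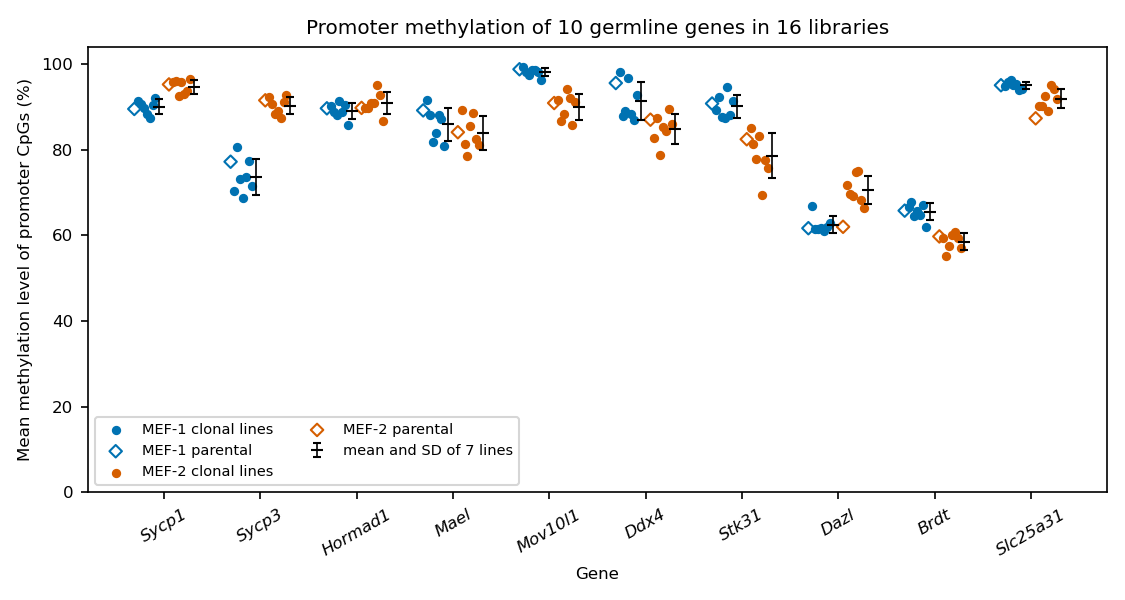
Mean methylation of the promoter CpGs (y axis, %) for each gene (x axis). Points are the 7 clonal lines of MEF-1 and MEF-2, open diamonds the parental libraries, and dashes with bars the mean and SD of the lines. The MEF-1 lines of Sycp3 lie at 68.6% to 80.7%, below all MEF-2 lines, and those of Mov10l1 and Stk31 lie above all MEF-2 lines.

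**Figure D3:**
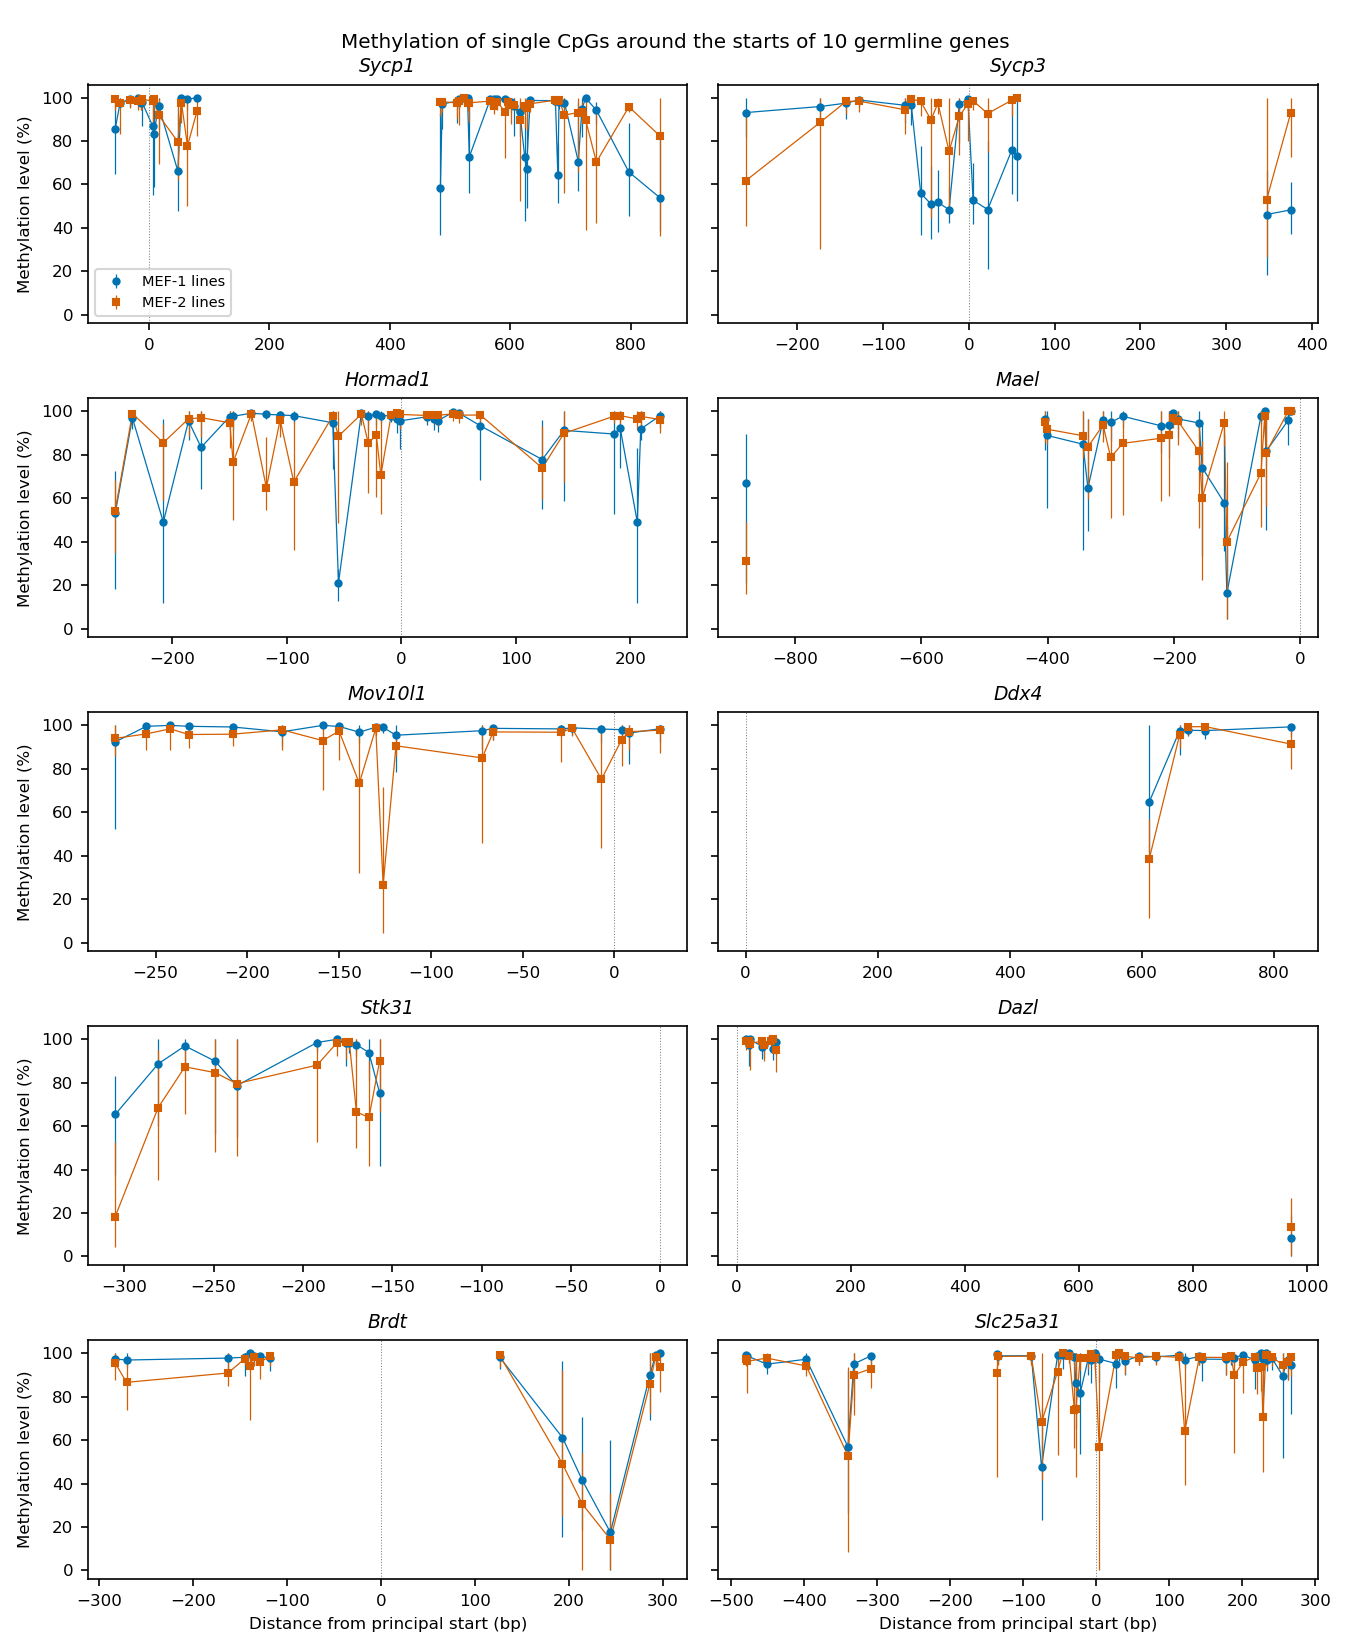
Methylation level of each measured CpG within 1000 bp of the principal start (y axis, %) against its distance from that start in bp (x axis), in a panel for each of the 10 genes. The 5 Dazl and 12 Brdt CpGs reached only from other starts, which had lower levels on average, are not drawn. Symbols are the means of the MEF-1 and MEF-2 lines and bars run from the lowest to the highest line. Around the Sycp3 start the MEF-1 means drop as far as 48.3% at some CpGs and stay above 96% at neighbouring ones.

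The promoters of 6 of the 10 genes were called different between families, 4 higher in MEF-1 (Mov10l1, Stk31, Brdt and Slc25a31) and 2 higher in MEF-2 (Sycp1 and Sycp3). Over all 13186 promoters the same test called 44.8%, with 28.1% higher in MEF-1 and 16.7% higher in MEF-2. By the mean over CpGs, line ranges did not overlap at 5 of the 10, against 26.2% of all promoters. By pooled reads, on which the quasi-binomial test runs, the ranges of Sycp1 and Brdt among these 5 overlapped. An exact permutation test of the mean levels gave an adjusted p of 0.00223 at each of those 5, with 0.000583 the smallest unadjusted p it can give. Ranges of means that do not overlap always give that smallest value, so the permutation test restates the lack of overlap. Without MEF-1 lines 1, 4 and 5 the count was 4, beside 34.7% of all promoters. Of the 236 CpGs, 47 were called (19.9%), against 20.2% of all CpGs, and 28 without those lines (14.1% of all CpGs). Among the 47, 23 were higher in MEF-1 and 24 in MEF-2, where the shares over all CpGs were 11.6% and 8.53%. The share of the germline CpGs called was thus near that of the whole table. Called CpGs numbered 10 at Sycp3, 9 at Sycp1, 6 at Hormad1, 5 at Slc25a31, 4 each at Dazl and Brdt, 3 each at Mael, Mov10l1 and Stk31, and 0 at Ddx4.

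As the genes were chosen with earlier results known, the shares over all CpGs here are for scale and test nothing. What the genes shared was a high state in both families. Of their CpGs, 135 (57.2%) had a mean of at least 90% in the lines of each family, against 20.9% of all CpGs and 7.26% of promoter CpGs. A level of at least 90% in all 16 libraries was found at 64 (27.1%), against 11.4% of all CpGs and 4.07% of promoter CpGs. These included 17 at Slc25a31, 12 at Sycp1, 11 at Hormad1, 5 each at Dazl and Brdt, 4 each at Mael and Mov10l1, and 2 each at Ddx4, Sycp3 and Stk31. Only 3 CpGs were under 10% in all 16 libraries.

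High methylation was kept in most clonal lines at most CpGs. In MEF-1, 173 CpGs were at 90% or more in the parental library, and 93.3% ± 2.49 of them were at 90% or more in a clonal line (range 89.0% to 96.0%). In MEF-2, 159 CpGs were at 90% or more in the parental library, and 89.3% ± 3.56 of them kept that level (range 84.3% to 94.3%). The share over all CpGs was 93.5% ± 0.983 for MEF-1 lines and 91.0% ± 1.08 for MEF-2 lines, and over CpGs of equal density 94.8% ± 0.559 and 93.1% ± 0.959. The germline CpGs were thus not above the other CpGs that were high in the parent.

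The spread among lines was read by parental level, because a percentage near 100% has less room to vary and a smaller counting error, so the classes below are set against all CpGs of the same class and not against each other. For the CpGs at 90% or more in the parent, the median SD over lines was 2.7 points in MEF-1 and 3.28 in MEF-2. For those between 10% and 90% in the parent it was 15.5 points over 55 CpGs in MEF-1 and 17.5 over 70 CpGs in MEF-2. Over all CpGs the corresponding medians were 2.55 and 3.03, and 14.0 and 16.8.

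**Figure D4:**
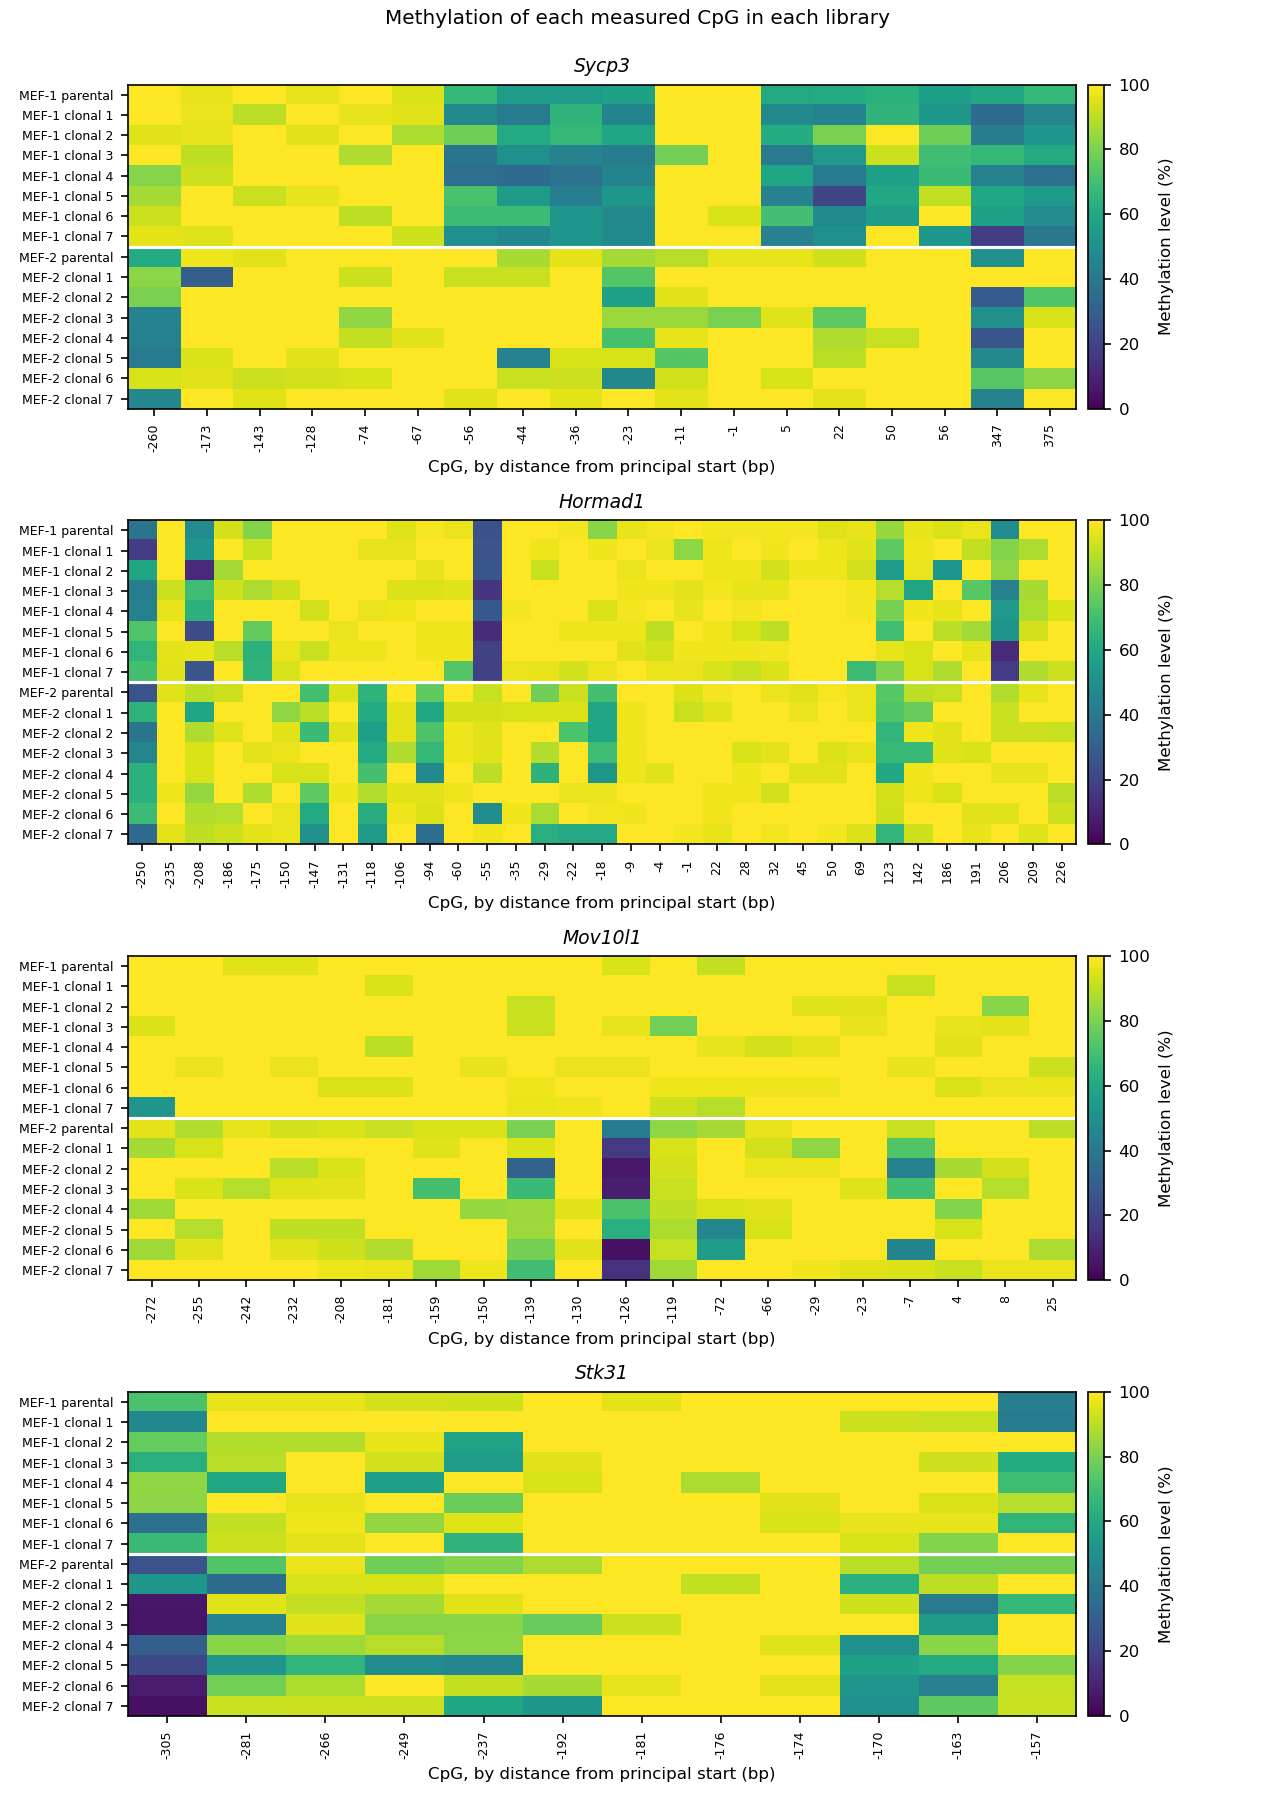
Methylation level (colour, %) of each measured CpG (columns, in order of distance from the principal start in bp) in each of the 16 libraries (rows, with the white line between MEF-1 and MEF-2) for Sycp3, Hormad1, Mov10l1 and Stk31. Most cells are near 100%, and cells at lower levels stand in the same columns in many libraries of a family.

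Loss in a single line was looked for at the level of whole promoters and of CpGs. No promoter lost most of its methylation in any line. By the mean over CpGs, the lowest level of a line was 55.3%, at Brdt, whose MEF-2 parental library was at 59.8%. A fall of at least 10 points below the parental library occurred in 1 of 63 gene and line pairs in MEF-2 (1.59%), where 9 genes were at 60% or more in the parent, and in 0 of 70 in MEF-1. Over all promoters at 60% or more in the parent, the share was 5.49% of pairs in MEF-2 and 2.49% in MEF-1. The 1 fall was Stk31 in MEF-2 line 5, at 69.4% against 82.5% in the parental library. The lowest Stk31 level elsewhere in MEF-2 was 75.8%, in line 7. These falls are of means over CpGs. By pooled reads, 3 of all 140 pairs fell by at least 10 points, and 1 of them was in MEF-1. That pair was Sycp3 in MEF-1 line 4, at 65.4% against 76.9% in the parent. The others were Stk31 in MEF-2 line 5 (66.1% against 79.8%) and Brdt in MEF-2 line 2 (42.8% against 53.4%). The share over all promoters was not taken by pooled reads. Values at least 10 points above the parent occurred for Dazl in MEF-2 lines 4 and 5, by 12.7 and 13.03 points, and in 0 pairs of MEF-1, against 3.73% and 2.03% of pairs over all promoters. The Dazl CpGs called higher than the parent lay at positions 1005 to 1184, and none of the 8 near the principal start was among them. All 7 MEF-2 lines were above the parental library at Dazl (4.37 to 13.03 points) and at Slc25a31 (1.78 to 7.81 points). Each comparison has 1 parental library, whose counting interval spans 0.946 to 6.17 points to each side of the level of pooled reads, by Wilson's method. That pooled level weights CpGs by depth and differs from the printed mean over CpGs, so the interval shows the size of the counting error and not a range around the mean.

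**Figure D5:**
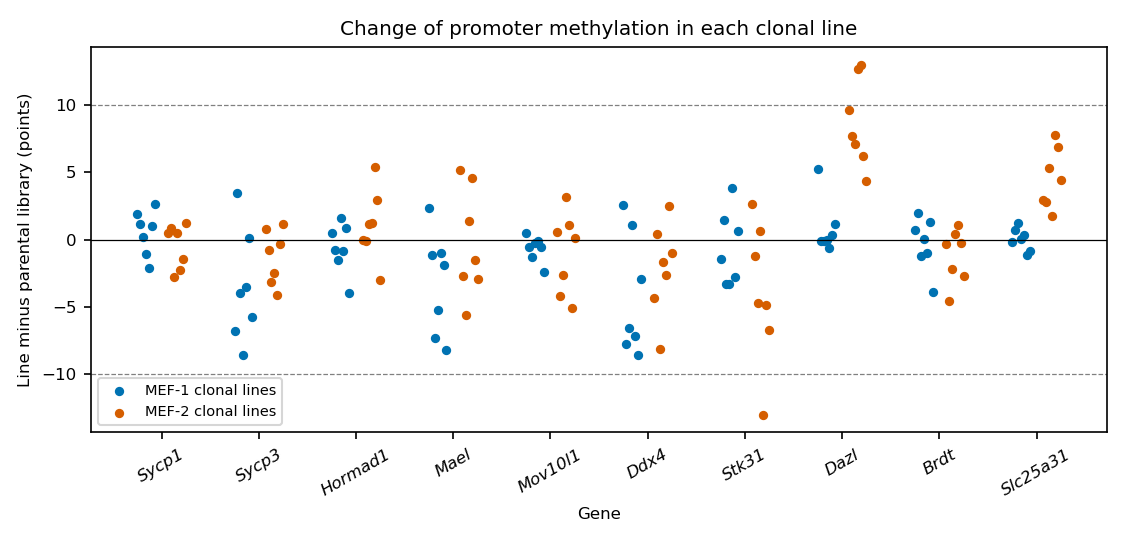
Promoter methylation of each clonal line minus its parental library (y axis, points) for each gene (x axis), with points for MEF-1 and MEF-2 lines. The lowest point is Stk31 in MEF-2 line 5, at -13.03, and the highest are the MEF-2 lines of Dazl, up to 13.03.

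At single CpGs, Fisher's exact test was run between each line and its parent, which compares those 2 libraries. Of 3304 pairs of a germline CpG and a line, 43 (1.3%) were called lower and 44 (1.33%) higher, against 2.33% and 2.68% over all CpGs. These shares are not of like CpGs, since the germline CpGs had a median of 24 reads, against 32 over all CpGs. In the MEF-1 parent, 173 of the 236 were at 90% or more, against 343107 of all 1203687. The lower calls at the germline genes touched 37 CpGs, of which 31 in 1 line only. There were 0 to 7 per line, with 7 in MEF-1 line 7 and in MEF-2 line 6, and 0 in MEF-1 lines 1, 4 and 6. By gene, Mael and Sycp1 had 9 each, Hormad1 8, Mov10l1 7, Brdt 4, Slc25a31 3, Stk31 2, Sycp3 1, and Dazl and Ddx4 0. Dazl and Slc25a31 instead had 11 higher calls each, those of Dazl all at these intron CpGs reached from other starts.

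The strictest form of loss is a CpG at 90% or more in the parent and in 6 lines, and under 60% in the remaining line. Over all CpGs that were high in the parent and at least 6 lines, it occurred at 1.56% in MEF-1 and 1.94% in MEF-2. At the germline genes it occurred at 2 of 156 CpGs in MEF-1 (1.28%) and at 4 of 133 in MEF-2 (3.01%). In MEF-1 these were Hormad1 142 in line 3, at 58.9% (56 reads, 95% interval 45.9% to 70.8%) against 96.4% in the parent, and Mov10l1 -272 in line 7, at 52.2% (23 reads, 33.0% to 70.8%) against 100%. In MEF-2, Sycp3 -173 in line 1 was at 30.4% (23 reads, 15.6% to 50.9%) against 97.3% in the parent, a line minus parent value of -66.9 points (Fisher's exact test, adjusted p = 3.21e-06). Sycp1 725 in line 6 had the most reads of the 6 losses and was at 38.8% (85 reads, 29.2% to 49.5%) against 92.1%, with no other line under 95.7% (adjusted p = 1.25e-10 by the same exact test). Hormad1 -55 in line 6 was at 48.8% (43 reads, 34.6% to 63.2%) against 91.7%. Slc25a31 -53 in line 1 was at 53.3% (15 reads, 30.1% to 75.2%) against 96.7%. These 6 losses were at levels of 30.4% to 58.9%, so that none was a complete loss, and the promoter means around them stayed within 10 points of the parent.

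Other falls were found at CpGs that varied among lines. At Brdt 193, MEF-1 line 7 was at 15.4% and line 3 at 23.5%, against 94.4% in the parent, and the highest line was at 96.4%. At Slc25a31 -340, MEF-2 lines 1 and 2 were at 8.33% and 9.09% against 68.8% in the parent, and the highest line was at 93.8%. At Brdt 29425, the lines of MEF-1 ran from 5.26% to 100% around a parental level of 54.8%. Line 7 held the lowest of these values and line 2 the highest, and the other 5 lines lay at 40% to 64.3%.

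The letters CACGTG, the E-box, were found on either strand between 250 bases before and 50 after the start in 8 of the 10 genes, all but Dazl and Ddx4. They were found in 7.8% of 18932 promoters of the same length, and in 11.7% of the 6940 in the high-CpG class. The letters TCCCGC, the core of E2F sites, were found in 6 of the 10, against 25.6% and 47.6%, and TTCCGG, an Ets core, in 0 of the 10, against 18.3% and 30.6%. CACGTG is its own reverse complement, so both strands match at each site. A match describes letters and not binding.

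Some CpGs inside CACGTG were less methylated than the CpGs around them. Over all 9 measured, in 6 genes, MEF-1 lines averaged 71.9% and MEF-2 lines 84.0%. The other 227 CpGs averaged 86.1% and 85.4%, so that by the mean alone MEF-2 showed almost no gap. By the median, CpGs inside CACGTG lay lower than the others for both families. The values were 93.3% against 97.3% over MEF-1 lines, and 88.6% against 96.3% over MEF-2 lines. Within 300 bp of the nearest start, 7 such CpGs were measured in 5 genes and averaged 65.6% in MEF-1 and 81.9% in MEF-2 lines, against 92.1% and 90.5% for the 162 other CpGs there. In MEF-1 the low ones were Hormad1 -55 (21.03% ± 6.0), Slc25a31 -75 (47.7% ± 17.6), Sycp3 -44 (51.0% ± 11.5) and Sycp3 -23 (48.3% ± 5.7). In MEF-1 the Mov10l1 E-box CpG was instead at 100% in all 7 lines, and that of Mael at 93.4% ± 6.4. Both were above the other CpGs within 100 bp in each family, in MEF-2 lines at 93.0% against 87.7% for Mov10l1 and 87.7% against 86.2% for Mael. The E-box CpG of Hormad1 at -18 was at 98.1% ± 2.02 in MEF-1 but at 70.7% ± 19.01 in MEF-2. Of the 4 low ones in MEF-1, those of Hormad1 and Sycp3 were called between families, and Slc25a31 -75 (68.1% ± 23.3 in MEF-2) was not (quasi-binomial adjusted p = 0.245). In 402 other gene promoters with a mean of at least 80%, CACGTG averaged 74.7% over 57 CpGs, the 4th lowest of 135 hexamers centred on a CpG. The lowest was CTCGAG, at 69.2% over 39 CpGs, and the median hexamer was at 88.8%.

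Among 84 other germline genes, 53 had a measured promoter. Of these, 22 were at 60% or more in all 16 libraries, 2 were at 90% or more (Gtsf1, a piRNA pathway gene, and Ldhal6b), and 2 were under 10% (Ddx25 and Gdf9). Starts of other genes within 1000 bp are given for the 10 genes only, so these levels may include CpGs of a neighbouring promoter. The median level of the 53 was 62.7%, below that of the 10 genes and above that of all promoters. Between families 31 of the 53 were called, 20 higher in MEF-1 and 11 higher in MEF-2, against 44.8% of all promoters. Ldhc, the testis lactate dehydrogenase, was at 73.1% ± 4.05 in MEF-1 and 24.3% ± 6.33 in MEF-2 lines (quasi-binomial adjusted p = 1.18e-06), and its parental libraries were at 73.8% and 20.4%. Tssk3, a testis serine kinase, was at 78.3% ± 2.5 and 48.3% ± 4.6 (quasi-binomial adjusted p = 3e-06). Tuba3b, a testis tubulin, was at 88.8% and 68.3%, whereas Mei1 (39.9% and 59.98%), a gene of meiotic recombination, and Ooep (23.3% and 39.98%), an oocyte gene, were higher in MEF-2. The lowest values of a line minus its parent were -25.4 points at Mei1, -20.03 at Nlrp14, -16.9 at Spo11 and -15.7 at Tex101, all further from 0 than the -13.03 of Stk31. These 4 falls rest on 7, 11, 5 and 13 CpGs. They started from parental levels of 48.9%, 57.6%, 44.9% and 71.2%, below the 82.5% of Stk31, so the falls are not of like promoters.

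Of 26 listed genes for repressors of germline promoters, 19 had a measured promoter, with a median of 15.6%, near the 13.8% over all promoters. None of these 19 was at 60% or more in all libraries, and 5 were under 10% in all, against 29.98% of all promoters. Of the 19, 11 were called different between families, 6 higher in MEF-1 (Cbx3, Rybp, Wdr5, Tfdp1, Setdb1 and Uhrf1) and 5 higher in MEF-2 (Ring1, Dnmt1, Dnmt3b, Atf7ip and Zbtb14). Over all promoters 44.8% were called, 28.1% higher in MEF-1 and 16.7% higher in MEF-2. At Uhrf1, which guides the maintenance methyltransferase, the levels were 15.2% ± 1.58 and 12.2% ± 2.58.

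The high-CpG promoters most like the median profile of the 10 genes over the 16 libraries, among 6507 compared, were Hist1h2aa, Csnk2a2, D1Pas1, Lrfn1 and Nbea. Their mean absolute differences from that profile were 1.29, 2.04, 2.1, 2.14 and 2.14 points. Hist1h2aa, a testis histone gene, was at 88.7% in MEF-1 and 85.7% in MEF-2 lines. Among the marker lists of other cell types, median promoter levels were 24.8% over 5 germ cell and pluripotency genes, 71.3% over 3 blood genes, 67.5% over 2 endothelial genes and 42.3% over 4 epithelial genes, against 11.9% over 6 fibroblast genes.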

How the data were processed

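Methylation was measured by target capture bisulfite sequencing (tcBS-seq, SureSelectXT Methyl-Seq) in 16 libraries. The values used are counts of methylated and unmethylated reads per CpG, as deposited by the authors. Per the study's methods and the submitters' processing notes, the authors trimmed reads with Trim Galore 0.6.0, used Bismark to align them to mm10, removed those with mapping quality under 10 and biased bases at read ends, and combined both strands. R 3.6.1 is also named. Removal of PCR duplicates is not given in the sources used here, so reads need not be independent molecules and intervals cover counting error only. The series table holds CpGs that reached 10 reads in each of the 16 libraries and leaves out chromosomes 12, 18, 19, X and Y. Its counts equalled those of the library tables at all 1203687 CpGs. Of 2 other columns of per-sample values, none was used. Of the CpGs, 113 did not fall on a CpG of the reference.

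Family differences were tested over the 14 clonal lines with a quasi-binomial logistic model and an F-test (dispersion not below 1), fitted to the pooled reads of each of 13186 promoters with at least 5 CpGs and to each CpG, with Benjamini-Hochberg adjustment over all of them and a threshold of 0.05. Printed levels are means of CpG levels with equal weight. Fisher's exact test was run between each line and its parent at every CpG, with adjustment over the table within a line. Promoter sequences were read from the GRCm38 genome of RefSeq. The scripts were tested on simulated data. Python 3.11.15, numpy 2.4.6, scipy 1.17.1, pandas 2.3.3 and matplotlib 3.10.9 were used. With at least 10 reads and medians of 26 to 39, single CpG levels are coarse, and promoter means over 5 to 44 CpGs are firmer.

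The 10 genes and the gene lists were chosen with earlier results of these data known. All 10 genes are named. Named CpGs are the lowest and highest of a gene and up to 3 called ones by size, and those of single-line losses and E-boxes. CpGs at Brdt 193, Slc25a31 -340 and Brdt 29425, and the Sycp3 CpGs within 100 bp, were named after their values were seen. Other germline genes are named by the largest family differences among called promoters and the largest falls below the parent. Alternatives were a replicate block, leaving out MEF-1 lines 1, 4 and 5, an exact permutation test, other windows, starts, read minimums and limits, and thinning to 10 reads. Of 84 other germline genes, 11 lie on chromosomes left out, 18 had under 5 CpGs and 2 symbols were not matched in the annotation. Of the 26 repressors, 6 lie on such chromosomes and 1 symbol was not matched.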

Additional observations from a re-analysis of the deposited data

Results flagged for a closer look

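Dazl in MEF-1 line 1 was at 66.95%, apart from the other 6 MEF-1 lines (61.1% to 62.9%): its gap to the nearest line was 0.692 of the range, above Dixon's limit of 0.568 for 7 samples. Chance gives a gap over the limit of 0.568 in about 1 in 20 groups, and 20 groups were looked at. How often it gives a gap of 0.692 was not worked out. In the same library, chromosome 17 had a relative coverage of 0.84; its part in the Dazl level was not tested. The 5 intron CpGs reached from other starts averaged 26.1% in this line, the highest of a range of 10.6% to 26.1%, whereas the 9 CpGs of the principal start ran only from 85.96% to 89.7% over the lines. The gap holds for the mean over CpGs with equal weight. By pooled reads, MEF-1 line 1 was at 50% and was the lowest line of its family, with 51.4% to 59.8% in the others.

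The CpGs of Ddx4 within 300 bp of the start are outside the table compared in the report, because each had under 10 reads in at least 1 library. Over their pooled reads the level was 79.4% in the MEF-1 parental library (354 reads over 50 CpGs, 95% Wilson interval 74.9% to 83.3%) and 89.7% in the MEF-2 parental library (417 reads, 86.4% to 92.3%). It was 72.6% over the MEF-1 lines and 90.7% over the MEF-2 lines. By line the means were 73.3% ± 5.36 in MEF-1 (range 65.2% to 79.1%) and 91.0% ± 2.43 in MEF-2 (range 87.2% to 94.2%), with ranges that did not overlap. The 5 deeper CpGs inside the gene showed the opposite order, with MEF-1 at 91.4% ± 4.5 and MEF-2 at 84.9% ± 3.43.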

How the results depend on the processing

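Of the 10 promoters, 6 were called between families. With a minimum of 20 reads 1 of the 4 that could be tested was called, against 46.1% of all promoters. This was Brdt, by 19.8 points over a subset of its CpGs, and Sycp1 was lost (quasi-binomial adjusted p = 0.0653). With a minimum of 5 reads Sycp1 reversed to 1.8 points higher in MEF-1; the cause was not tested. An exact permutation test of mean levels called 8, adding Dazl (adjusted p = 0.00375) and Ddx4 (adjusted p = 0.0181), while 54.0% of all promoters were called. CpGs called numbered 47, and in separate fits 28 of 236 without MEF-1 lines 1, 4 and 5 (14.1% over all CpGs), 14 of 59 with a minimum of 20 reads (23.2%) and 80 of 425 with a minimum of 5 (18.2%). CpG and line pairs called lower numbered 43 over 236 CpGs (2.33% of pairs over all CpGs), 21 over 59 CpGs with a minimum of 20 reads (3.92%), 59 over 425 CpGs with a minimum of 5 (1.62%), and 0 when every library was thinned to 10 reads per CpG, at which depth Fisher's exact test called 0 over all CpGs too and 33 pairs had an unadjusted p under 0.05. The share of high CpGs kept was 91.3% over the 14 lines and 95.0% with high set from 80%. Over all 140 gene and line pairs, with no lower limit on the parental level, promoter falls numbered 1 at 10 points, 0 at 20 points, 15 at 5 points, 3 with pooled reads and 3 with a minimum of 5 reads, and with a minimum of 20 reads 0 of the 56 pairs left. The replicate numbers do not pair the lines: deviations of lines with the same number correlated over 0.1 in 0 of 7 pairs, and number 6 alone matched its own number best. With the number as a replicate block, 6 promoters (39.7% over all promoters) and 47 CpGs (17.3% over all CpGs) were called, with Mael gained (quasi-binomial adjusted p = 0.0286) and Brdt lost (quasi-binomial adjusted p = 0.06).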

Other observations

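CpGs within 300 bp of the starts that had under 10 reads in some library were also highly methylated at the other 9 genes, with means over the lines of 78.6% to 97.3%. At Dazl, 44 such CpGs averaged 96.6% ± 1.07 in MEF-1 and 97.3% ± 1.07 in MEF-2 lines. At Sycp3 they averaged 82.4% ± 4.77 and 94.9% ± 1.89, the same order as the deeper CpGs, and at Mov10l1 94.7% ± 1.33 and 87.0% ± 3.74, again the same order. At Brdt they averaged 88.9% ± 4.31 and 78.6% ± 3.56 and at Mael 92.6% ± 0.999 and 92.4% ± 1.91. The order was opposite to that of the deeper CpGs at Sycp1, Slc25a31 and Stk31, as given with those genes. It was also opposite at Hormad1, at 97.3% ± 3.1 in MEF-1 and 95.1% ± 4.95 in MEF-2 lines, with overlapping ranges. These CpGs are shallow, and no test was run on them.

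The SD over lines was larger in MEF-2 than in MEF-1 for 7 of the 10 promoters, and ranged from 0.84 to 5.23 points over both families. This difference in spread was not tested.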
